A study of Rattus norvegicus with 32 samples.

Results

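The ageing of the sciatic nerve was followed in whole nerve from male Wistar rats, as the difference between 8 old animals (24 months) and 8 adult animals (8 months), with 1 array per animal. The comparison rests on the arrays titled sciatic nerve, 16 of the 32 in the series, and on all 31042 probe sets of 31139 that are not array controls. The other 16 arrays hold the radial nerve of the same animals and entered the same fit, so that each age difference in the sciatic nerve could be set against the one in the radial nerve. The sciatic nerve runs to the hindlimb, where muscle is lost as these rats age, and the radial nerve runs to the forelimb. All 4 groups were untreated, fed without restriction and housed in pairs, and a piece of nerve from the mid-thigh or the arm was frozen after exsanguination under isoflurane. Groups were taken from the sample titles. For 3 adult animals (replicates 4, 5 and 6) the source names give the opposite nerve.

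A peripheral nerve is a bundle of axons whose cell bodies lie in the spinal cord and the dorsal root ganglia. Most RNA in a nerve piece therefore comes from other cells: myelinating and non-myelinating Schwann cells, fibroblasts, the perineurial sheath that encloses each fascicle, vessels, resident macrophages and mast cells, with fat and muscle adhering outside. Myelin is built largely of lipid, and Schwann cells make most of its cholesterol themselves. When axons are lost, Schwann cells leave the myelinating state, stop making myelin lipid and protein, divide, and take up a repair state with growth factor and adhesion genes of its own. In whole tissue, fewer cells of a type and less RNA per cell cannot be told apart.

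The 16 sciatic arrays correlated between 0.972 and 0.995 with each other, and values are log2 intensities, on which a difference of 1 is a doubling. Probe sets differ in brightness for technical reasons, so levels were compared between animals and never between genes. The mean of 9 hindlimb and posterior position genes lay between 7.46 and 8.21 on all sciatic arrays and between 6.81 and 7.28 on all radial arrays, and was 8.04, 8.21 and 7.88 on the sciatic arrays of the 3 animals with contradicting source names. Myelin transcripts were bright on every sciatic array, with a mean over 16 genes of 11.49 to 12.29. Some samples stood apart in cells other than nerve cells. The mean of 24 skeletal muscle genes exceeded 9 in adult replicate 2 (9.16) and in old replicates 4 (11.62) and 7 (9.55), and none of these genes passed the test with age. Old replicate 1 had the highest means of the 26 macrophage genes (11.40 against 9.31 to 10.21 in the other old nerves) and of the 21 T and NK cell genes (7.50 against 5.75 to 6.24), and old replicate 3 had the highest means of the neutrophil genes (7.98) and blood cell genes (8.17). Differences below are old minus adult for 8 arrays per group, ± the SE of the limma fit, whose variance was estimated over all 32 arrays. Adjusted p comes from limma with Benjamini-Hochberg adjustment over all 31042 probe sets. A call is named stable where it held in each of the 16 fits that left out 1 animal.

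Age changed 22.2% of the genes in the sciatic nerve, most of them by small amounts. At adjusted p under 0.05, 1665 of 13438 genes rose (12.4%) and 1314 fell (9.78%), with a median absolute difference of 0.31 among them. Of the probe sets, 3013 (9.71%) rose and 3096 (9.97%) fell, 19.7% in all. Past both that threshold and a doubling or halving, 224 probe sets rose (0.722%) and 140 fell (0.451%), and with each gene read from its brightest probe set 135 genes rose (1.0%) and 62 fell (0.461%). Of these 364 probe sets, 123 carry no gene symbol in the annotation used. For 102 of the 135 higher genes every old value exceeded every adult value, and for 33 of the 62 lower genes every old value lay below every adult value, against 3.29% and 2.09% of all genes and 2.34% and 1.84% of all probe sets. These genes were chosen on the same values, so the absence of overlap is a description. The shares of all genes that rose (12.4%) and fell (9.78%) are the background of every gene list counted below. Of all genes, 442 (3.29%) were higher and 281 (2.09%) lower without overlap, which is the background of counts without overlap.

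The gene with the largest difference was Fam111a, known in human cells as a protease that acts at replication forks and against viruses, which lay between 6.45 and 7.23 (median 7.03) in adult nerves and between 11.35 and 12.62 (median 11.99) in old ones, a difference of 5.03 ± 0.19 (adjusted p = 7.29e-19). Its old animals spread over little more than 1 log2 unit and stood well clear of the adults. Ngfr, the low-affinity neurotrophin receptor of Schwann cells, lay between 8.07 and 8.73 (median 8.45) in adult nerves and between 10.87 and 12.09 (median 11.49) in old ones. The microglial and macrophage lipid receptor Trem2 lay between 6.05 and 6.64 (median 6.39) in adult nerves and between 8.12 and 9.46 (median 9.07) in old ones, and its second probe set differed by 3.21 as well. In all 3 genes the gap between the ages was wider than the range within either age. Among the 15 highest differences were also the sodium channel subunit Scn3b (2.42 ± 0.24), the axonal neurofilament Nefl (2.81 ± 0.29), the epithelial adhesion molecule Epcam (2.38 ± 0.33), the membrane proteins Tmem196 (2.32 ± 0.31) and Baalc (2.30 ± 0.30), the protease inhibitor A2m (3.00 ± 0.43), and the ubiquitin-like modifier Ubd (2.80 ± 0.34). Adult nerves spread far more for A2m (6.66 to 10.04), Ubd (7.35 to 9.50) and Senp5l1 (5.96 to 9.22) than for Fam111a, and the highest adult value of Senp5l1, a gene named after the SUMO proteases, came up to the lowest old value (9.23).

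Among the lowest differences, Pik3r1, the regulatory subunit of PI3 kinase, lay between 10.37 and 11.43 (median 11.06) in adult nerves and between 8.02 and 9.26 (median 8.47) in old ones, a fall of 2.52 ± 0.17 (adjusted p = 3.22e-12). A pair of further signalling and RNA genes separated the ages as cleanly: the Ly6 family gene Ly6l fell by 2.47 ± 0.15, and the splicing factor Cwc25 by 2.47 ± 0.17. The potassium-dependent sodium and calcium exchanger Slc24a2 fell by 2.34 ± 0.31 and the A-type potassium channel Kcnd3 by 1.76 ± 0.16, although a second and dimmer Kcnd3 probe set differed by -0.19 only (adjusted p = 0.107). The mitochondrial creatine kinase Ckmt1 fell by 1.43 ± 0.13, the transcription factor Ascl3 by 1.77 ± 0.15, the cartilage and tendon glycoprotein Cnmd by 1.76 ± 0.15, Armh4 by 1.47 ± 0.17 and the synaptic adhesion gene LRRTM1 by 1.40 ± 0.14. Albumin (Alb) differed by -2.04 ± 0.60 with adult values from 4.98 to 10.33 and old values from 4.10 to 4.95. Its call was lost without the 3 animals of contradicting source names (-1.46, adjusted p = 0.0549) and without the arrays rich in muscle transcripts (-2.06, adjusted p = 0.053), and its other probe set did not pass (-0.89).

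**Figure D1:**
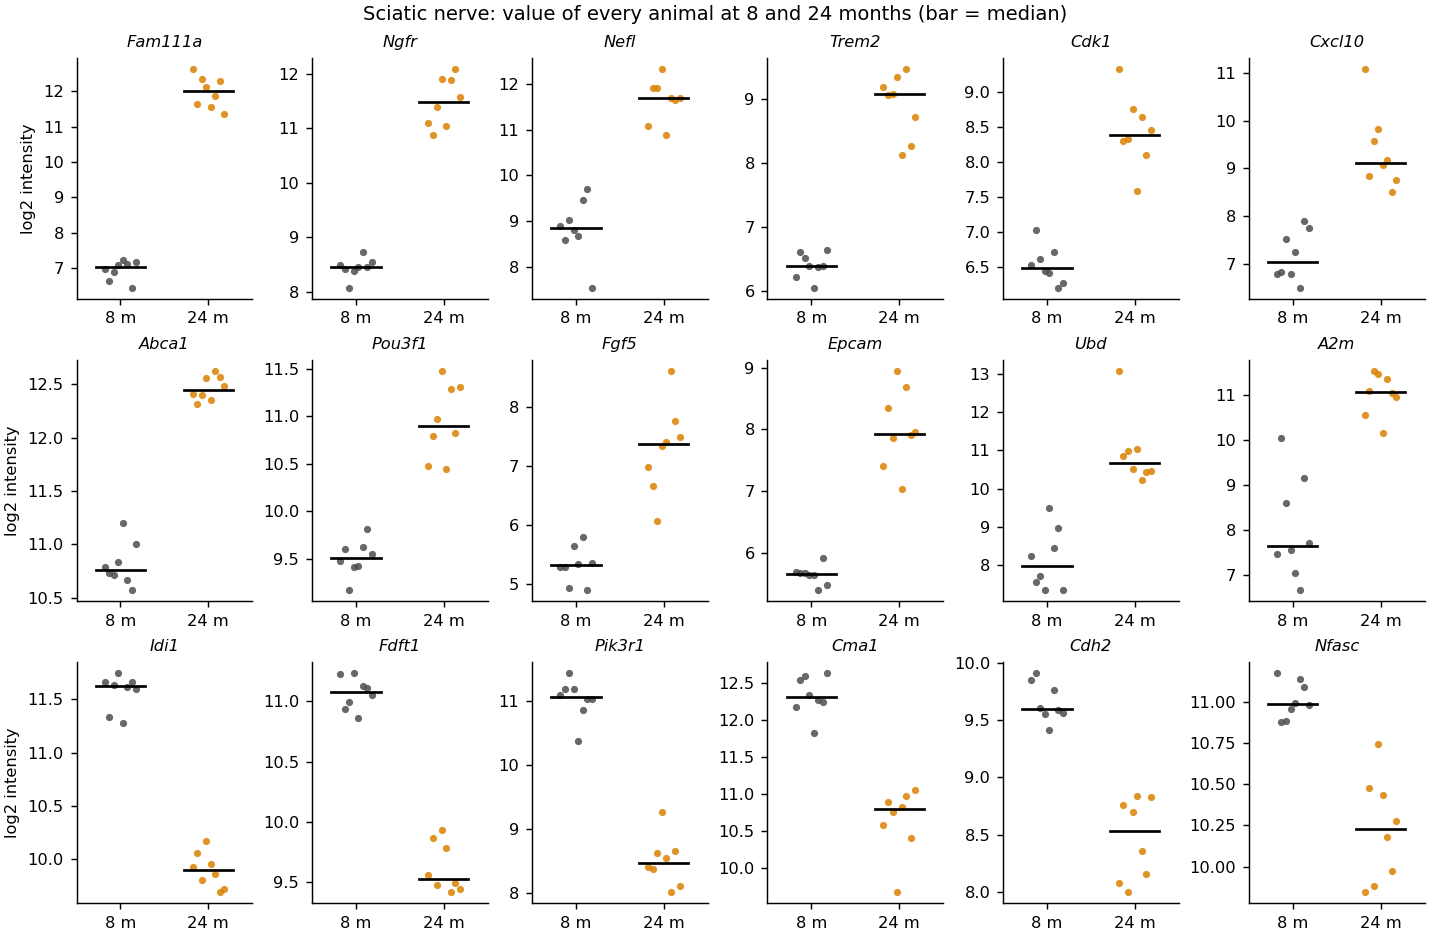
Log2 intensity (y axis) of 18 genes in every sciatic nerve, with 8 adult animals at 8 months (grey) and 8 old animals at 24 months (orange); each point is 1 animal and the bar is the group median. Old and adult values do not overlap in any of the 18 genes, which were picked for display, against 3.29% (higher) and 2.09% (lower) of all genes. Fam111a goes from a median of 7.03 to 11.99, Idi1 from 11.62 to 9.90, and old replicate 1 is the highest point for Ubd and Cxcl10.

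Genes of every stretch of cholesterol synthesis fell with age, and the median was lowest at the steps around squalene. Cholesterol is made in 3 stretches: acetyl units are joined and reduced to mevalonate and built into isoprenoid units, isoprenoids are condensed to squalene and cyclised to lanosterol, and lanosterol is trimmed to cholesterol. Of 7 measured genes of the first stretch 6 fell (9.78% of all genes fell), with a median of -0.60. All 4 genes of the squalene and lanosterol steps fell, with a median of -1.30, and 7 of 8 genes from lanosterol to cholesterol fell, with a median of -0.76. The median over all 13438 genes was 0.00. All 17 calls were stable. The pathway is one the study itself chose on these samples, so its direction is not independent evidence.

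In the first stretch, Idi1, which converts the isoprenoid isomers into each other, lay between 11.27 and 11.74 (median 11.62) in adult nerves and between 9.70 and 10.18 (median 9.90) in old ones, a fall of 1.66 ± 0.11 (adjusted p = 5.82e-12). The adult and old values were more than 1 log2 unit apart at their closest. The other members fell by less: Acat2, which joins acetyl units, by 0.69 ± 0.10, Fdps, which makes farnesyl diphosphate, by 0.69 ± 0.08, the decarboxylase Mvd by 0.60 ± 0.10, and the kinases Mvk and Pmvk by 0.45 ± 0.07 and 0.34 ± 0.06. Old and adult values overlapped for Mvd alone among these. Ggps1, which sends farnesyl diphosphate towards protein prenylation and away from sterols, differed by 0.01 ± 0.06. At the entry to sterols, squalene synthase Fdft1 lay between 10.86 and 11.24 (median 11.08) in adult nerves and between 9.42 and 9.93 (median 9.53) in old ones, a fall of 1.45 ± 0.11. The squalene epoxidase Sqle fell by 1.30 ± 0.12, the lanosterol synthase Lss by 0.52 ± 0.07 and the lanosterol demethylase Cyp51 by 1.30 ± 0.11. None of these 4 genes had an old value inside the adult range, although a dimmer probe set of Lss differed by -0.16 and did not pass.

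Below lanosterol, the sterol reductase Tm7sf2 fell by 1.14 ± 0.13, whereas Lbr, which carries the same reductase activity in the nuclear envelope, differed by -0.20 ± 0.07 (adjusted p = 0.0612). Sc5d, the desaturase near the end of the path, fell by 0.99 ± 0.15, the methyl oxidase Msmo1 by 0.86 ± 0.09, the dehydrogenase Nsdhl by 0.79 ± 0.07, the last reductase Dhcr7 by 0.72 ± 0.13, Hsd17b7 by 0.68 ± 0.13 and the isomerase Ebp by 0.20 ± 0.05. The mean over the 8 genes of this stretch lay between 9.87 and 10.09 (median 10.02) in adult nerves and between 9.16 and 9.41 (median 9.30) in old ones. The mean over the 4 genes before it lay between 10.64 and 10.96 (median 10.88) and between 9.55 and 9.93 (median 9.67). All 8 old animals lay below all 8 adults by either mean.

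Sterol-regulated transcription acts at gene starts through sterol response elements, with CCAAT boxes, bound by NF-Y, close by. Promoter sequence (250 bases before the gene start, RefSeq, build GRCr8) was found for 16 of the 19 measured genes of cholesterol synthesis, 14 of them among the 17 that fell. A CCAAT box (letters CCAAT, either strand) occurred in 13 of the 16 (81.2%) and in 11 of the 14 that fell (78.6%), against 36.1% of the promoters of all 27457 genes in the table and 36.2% of those of 11089 genes on the array. Ggps1 and Lbr, which did not pass, hold a box as well. The strict sterol element TCACNCCAC occurred in 0 of 16, against 1.09% of all. The windows of 3 members with large falls are shown for their CCAAT boxes, which are in capitals and all read ATTGG here because they lie on the other strand.
Idi1 (chr17:66547543-66547602, minus strand): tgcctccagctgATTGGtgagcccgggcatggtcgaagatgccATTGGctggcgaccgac
Tm7sf2 (chr1:212789601-212789655, minus strand): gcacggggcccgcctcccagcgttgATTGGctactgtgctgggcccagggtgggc
Sc5d (chr8:51538335-51538389, minus strand): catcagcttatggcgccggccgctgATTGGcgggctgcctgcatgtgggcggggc
A match describes the letters in this window only. Idi1, the member with the largest fall, has 2 such boxes between bases 78 and 19 before its start. Cyp51, Acat2 and Dhcr7, which fell as well, hold none, and Mvk, with a smaller fall of 0.45, holds 5.

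Of the regulators of this pathway some fell too. SREBP proteins are held in the endoplasmic reticulum by SCAP and INSIG and switch on sterol genes once released. Of 12 genes of SREBP control and sterol uptake 4 fell and 0 rose, with a median of -0.14, and all 4 calls were stable. Insig1, itself a sterol-regulated gene that retains SREBP, fell by 0.86 ± 0.12, the sterol carrier Stard4 by 0.71 ± 0.08, and Srebf2, which encodes the sterol-selective SREBP, lay between 11.03 and 11.46 (median 11.32) in adult nerves and between 10.68 and 10.91 (median 10.84) in old ones, a fall of 0.50 ± 0.05. In these 3 genes no old value reached the adult range, and a dim probe set of Srebf2 differed by 0.03. Srebf1 (0.02 ± 0.11), Scap (0.02 ± 0.04), the protease Mbtps1 (-0.03 ± 0.04), the HDL receptor Scarb1 (-0.15 ± 0.12) and the lipoprotein receptor Vldlr (-0.15 ± 0.12) did not pass.

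Genes that export, carry or store sterol rose. Of 15 such genes 9 rose (12.4% of all genes rose), with a median of 0.33, and 1 fell, the lipoprotein lipase Lpl, whose call was not stable. Abca1, which loads cholesterol onto apolipoproteins at the cell surface, lay between 10.57 and 11.20 (median 10.76) in adult nerves and between 12.31 and 12.62 (median 12.45) in old ones, a rise of 1.65 ± 0.10, and its 3 other probe sets rose as well, by 0.74 to 1.87. The apolipoproteins Apoc1 (2.85 ± 0.30), Apod (1.13 ± 0.14) and Apoe (0.25 ± 0.04) rose by very different amounts, and Apoc1 lay between 6.23 and 6.55 in adults against 8.09 to 9.94 in old animals. The esterifying enzyme Soat1 (0.63 ± 0.10), the lysosomal acid lipase Lipa (0.38 ± 0.06) and the sterol transporter Abcg1 (0.48 ± 0.11) rose too. Old values lay above all adult values in 6 of the 9 genes, while over all genes 442 did so, beside 1665 that rose. The oxysterol receptor Nr1h2 (0.01 ± 0.04) and the phospholipid transfer protein Pltp (-0.01 ± 0.12) did not pass.

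**Figure D2:**
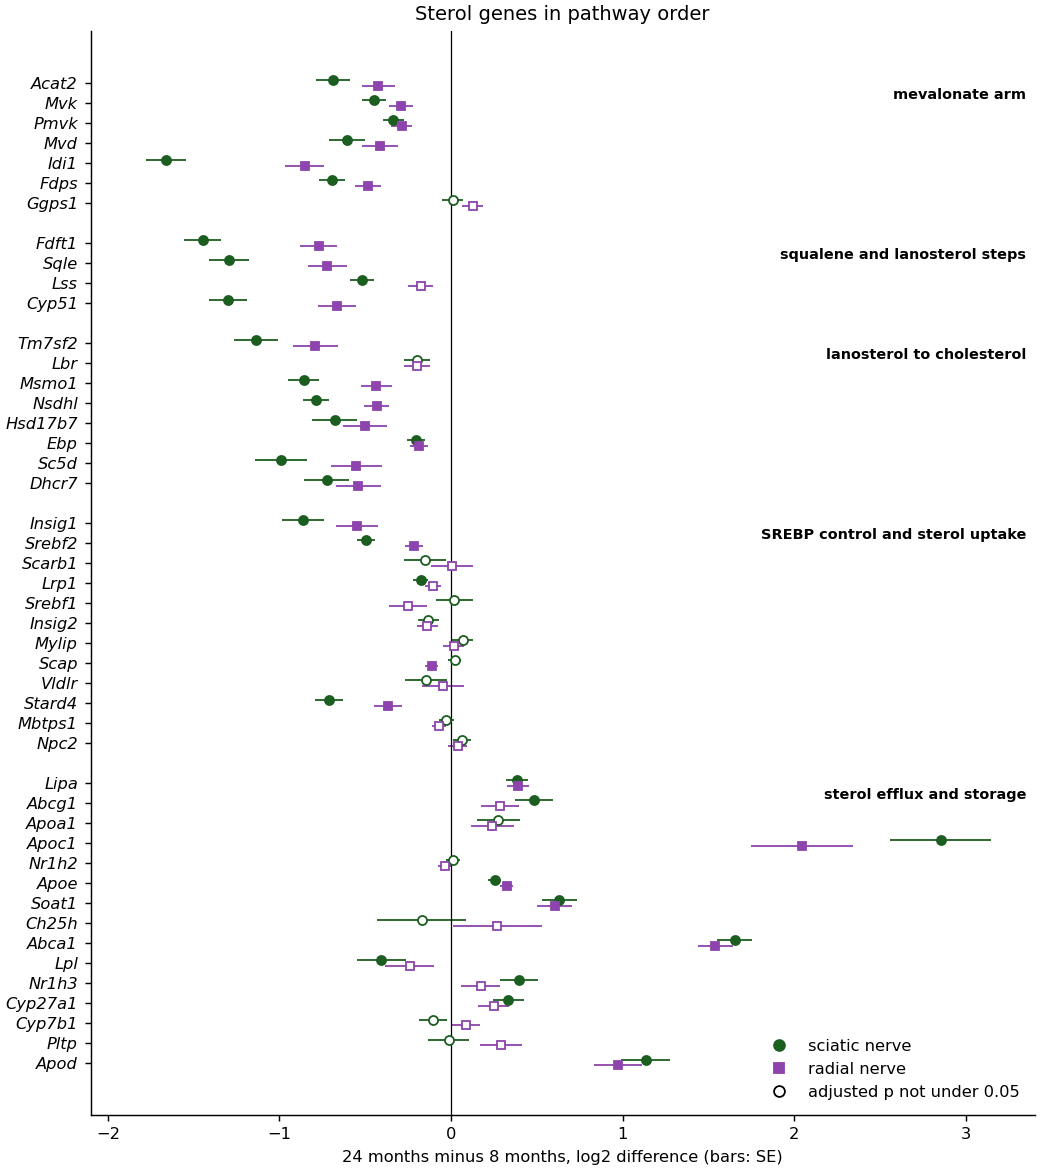
Age difference (x axis, log2, 24 minus 8 months, bars SE) of sterol genes in pathway order (y axis) in the sciatic nerve (circles) and the radial nerve (squares), 8 arrays per group; open symbols did not pass. The sciatic symbols of the synthesis genes lie left of zero down to -1.66 for Idi1, apart from Ggps1 at 0.01, and Apoc1, Abca1 and Apod lie at 2.85, 1.65 and 1.13.

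Fatty acid synthesis fell in part. Of 19 genes 9 fell, 7 of them stably, and 0 rose, with a median of -0.17. Those with the largest falls elongate or desaturate fatty acids. The elongase Elovl6 lay between 10.09 and 10.79 (median 10.54) in adult nerves and between 8.37 and 9.16 (median 8.85) in old ones, a fall of 1.80 ± 0.13 (adjusted p = 1.51e-11). The desaturase Scd fell by 2.28 ± 0.58, with adult values from 10.30 to 13.53 and old values from 7.77 to 11.70. Malic enzyme Me1 fell by 0.63 ± 0.12, the acetate ligase Acss2 by 0.47 ± 0.06, the long-chain acyl ligase Acsl3 by 0.40 ± 0.09 and the desaturase Fads1 by 0.29 ± 0.05. Elovl6, Acss2 and Fads1 separated the ages without overlap, whereas Scd, Me1 and Acsl3 did not. The committed enzymes Acaca (-0.17 ± 0.10) and Acly (-0.01 ± 0.06) and the elongase Elovl5 (-0.09 ± 0.11) did not pass, and 1 of 19 fatty acid oxidation genes rose, the mitochondrial carrier Ucp2 (0.62 ± 0.14), with none lower.

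Myelin also contains galactolipids and sphingomyelin. Of 20 genes of these paths 7 fell, 5 of them stably, and 2 rose, with a median of -0.10. The falls included the hydroxylase Fa2h (0.66 ± 0.11), which makes the hydroxylated fatty acids of myelin, Ugt8 (0.51 ± 0.10), which adds galactose to ceramide, the desaturase Degs1 (0.25 ± 0.03) and the sphingomyelin synthase Sgms1 (0.26 ± 0.08). St3gal5, which starts the gangliosides, rose by 0.51 ± 0.09 without overlap. A dim second probe set of Ugt8 differed by -0.05. The degrading enzymes Galc (-0.03 ± 0.13) and Asah1 (-0.09 ± 0.05) did not pass.

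Genes of myelin proteins differed little, while several regulators of the Schwann cell state rose. Of 16 myelin protein genes 9 fell, with a median of -0.21, but the count was 3 without old replicate 1 (and 5 without adult replicate 1 or old replicate 3), and 3 calls were stable. The stable falls were small, as in the raft protein Mal, which lay between 13.37 and 13.59 (median 13.49) in adult nerves and between 12.82 and 13.50 (median 13.13) in old ones, a fall of 0.33 ± 0.07. The mean over the 16 genes lay between 11.87 and 12.02 (median 11.95) in adult nerves and between 11.49 and 12.29 (median 11.81) in old ones, and the highest old value was that of replicate 4, the array with the most muscle transcript.

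Of 20 regulators of myelination 7 rose, all stably, and 1 fell. Pou3f1, a transcription factor of promyelinating Schwann cells that is silenced once myelin forms, lay between 9.17 and 9.82 (median 9.51) in adult nerves and between 10.44 and 11.47 (median 10.90) in old ones, a rise of 1.44 ± 0.17 (adjusted p = 3.98e-07). Sox2, which holds Schwann cells in an immature state, rose by 1.06 ± 0.13. The neuregulin receptors Erbb2 and Erbb3, through which axons drive myelination, rose by 0.60 ± 0.10 and 0.49 ± 0.12, and their adult and old values overlapped. The co-factors of the myelin activator EGR2 moved apart, Nab2 higher by 0.38 ± 0.08 and Nab1 lower by 0.36 ± 0.06, while Egr2 itself differed by 0.18 ± 0.11. The Hippo factors Tead1 (-0.08 ± 0.08) and Wwtr1 (0.06 ± 0.08) and the G protein receptor Adgrg6 (-0.15 ± 0.09) did not pass. Of the other 3 probe sets of Sox2 a pair rose as well (0.66 and 0.73), and one near the lower end of the scale differed by 0.08.

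Of 22 genes of the node and of axon contact 4 fell and 2 rose, all stably, against 9.78% and 12.4% of all genes. Nfasc, whose glial form joins the paranodal loops to the axon, lay between 10.88 and 11.17 (median 10.99) in adult nerves and between 9.85 and 10.74 (median 10.23) in old ones, a fall of 0.78 ± 0.11. The contactins Cntn2 and Cntn1, which sit in the juxtaparanode and paranode, fell by 0.76 ± 0.12 and 0.64 ± 0.15. Of the nectin-like molecules along the internode, Cadm3 fell by 0.42 ± 0.05 and Cadm1 rose by 0.75 ± 0.11, both without overlap between the ages. The potassium channel Kcna2 of the juxtaparanode (-0.11 ± 0.12) and the scaffold Ank3 (-0.08 ± 0.10) did not pass.

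Genes known from repair Schwann cells rose in part, and 1 fell. Of 17 such genes 7 rose and 1 fell, all stably, with a median of 0.33. Beside Ngfr, the peptide Ucn2 lay between 5.26 and 5.73 (median 5.49) in adult nerves and between 7.21 and 9.05 (median 8.21) in old ones, a rise of 2.63 ± 0.27. The intermediate filament Gfap rose by 1.12 ± 0.16, the injury-induced transcription factor Atf3 by 1.10 ± 0.15, the EGF family ligand Btc by 1.06 ± 0.15, the cytokine Clcf1 by 0.84 ± 0.15 and the morphogen Shh by 0.82 ± 0.23. N-cadherin (Cdh2), the Schwann cell adhesion molecule, lay between 9.41 and 9.91 (median 9.59) in adult nerves and between 8.00 and 8.84 (median 8.53) in old ones, a fall of 1.19 ± 0.11, and its second probe set fell by 1.00. In each of these genes the old and adult values were apart. Other genes of the same state did not pass: the growth cone protein Gap43 (0.18 ± 0.20), tenascin (Tnc, 0.28 ± 0.17), Gdnf (0.02 ± 0.08), Lif (-0.18 ± 0.08) and Ncam1 (-0.09 ± 0.11). The study named some of these genes from the same samples.

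Among growth factor ligands, 5 of 28 rose, all stably, and 5 fell, 3 of them stably. Fgf5 lay between 4.89 and 5.79 (median 5.31) in adult nerves and between 6.06 and 8.61 (median 7.38) in old ones, a rise of 1.97 ± 0.26. Midkine (Mdk), a heparin-binding neurite growth factor, lay between 9.07 and 10.31 (median 9.83) in adult nerves and between 10.75 and 11.35 (median 11.24) in old ones, a rise of 1.37 ± 0.15. Tgfb1 (0.59 ± 0.13) and Pdgfa (0.33 ± 0.05) rose with overlap between the ages. Among the ligands that fell were neurturin (Nrtn, 0.40 ± 0.09), a GDNF family member, and Fgf7 (0.36 ± 0.09). Neither Ntf3 (0.11 ± 0.14), Ntf4 (0.06 ± 0.06), Igf1 (-0.22 ± 0.11), Hgf (-0.08 ± 0.06) nor Ptn (0.07 ± 0.06) passed. For Bdnf the brighter probe set, which stands for the gene here, differed by 0.14 ± 0.07, and a dimmer one by 0.99 (adjusted p = 2.60e-07). The first of these passed with array weights (0.19, adjusted p = 0.0155).

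Of 26 receptors for such factors 8 rose, all stably, and 4 fell, 2 of them stably. Gfra1, the GDNF co-receptor, lay between 10.18 and 10.95 (median 10.87) in adult nerves and between 11.29 and 12.05 (median 11.73) in old ones, a rise of 0.98 ± 0.13, while the sister receptor Gfra3 differed by 0.00 ± 0.12. Alk, a receptor tyrosine kinase of the developing nervous system, lay between 7.70 and 8.65 (median 8.47) in adult nerves and between 8.91 and 9.79 (median 9.26) in old ones, a rise of 0.92 ± 0.17. Fgfr2 (0.85 ± 0.16) and the TGF-beta receptor Tgfbr1 (0.45 ± 0.10) rose, and Fgfr4 fell by 0.88 ± 0.11. Ntrk2, the BDNF receptor, fell by 0.34 ± 0.08, and its other 3 probe sets gave -0.12 to -0.19 and did not pass. Of the 4 other Fgfr2 probe sets 1 rose by 0.17, and 3 gave 0.00 to 0.14 and did not pass. Fgfr1 (0.06 ± 0.06), Met (-0.10 ± 0.11), Egfr (0.05 ± 0.21) and Pdgfra (-0.15 ± 0.07) did not pass.

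Transcripts that are typical of neurons, which in a nerve piece can come from axons or from Schwann cells, changed in both directions. Of 23 such genes 4 rose and 6 fell, all stably, with a median of -0.14. The light and medium neurofilaments rose: Nefl lay between 7.54 and 9.69 (median 8.85) in adult nerves and between 10.88 and 12.33 (median 11.69) in old ones, a rise of 2.81 ± 0.29, and Nefm rose by 2.10 ± 0.30. The heavy neurofilament Nefh fell by 0.78 ± 0.19, and the related filament peripherin (Prph), found in sensory and motor axons, by 0.71 ± 0.14. The stathmins, which bind tubulin, split likewise, with Stmn2 higher by 0.98 ± 0.18 and Stmn3 lower by 1.26 ± 0.15. The sensory peptide Calca fell by 0.51 ± 0.13 and the kinesin Kif5a by 0.48 ± 0.11, but both other probe sets of Calca and 1 of the 2 others of Kif5a did not pass. Old and adult values were apart for Nefl, Nefm, Nefh and Stmn3. The acetylcholine transporter Slc18a3 (-0.10 ± 0.07) of motor axons and the sensory peptide Tac1 (-0.12 ± 0.08) did not pass.

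**Figure D3:**
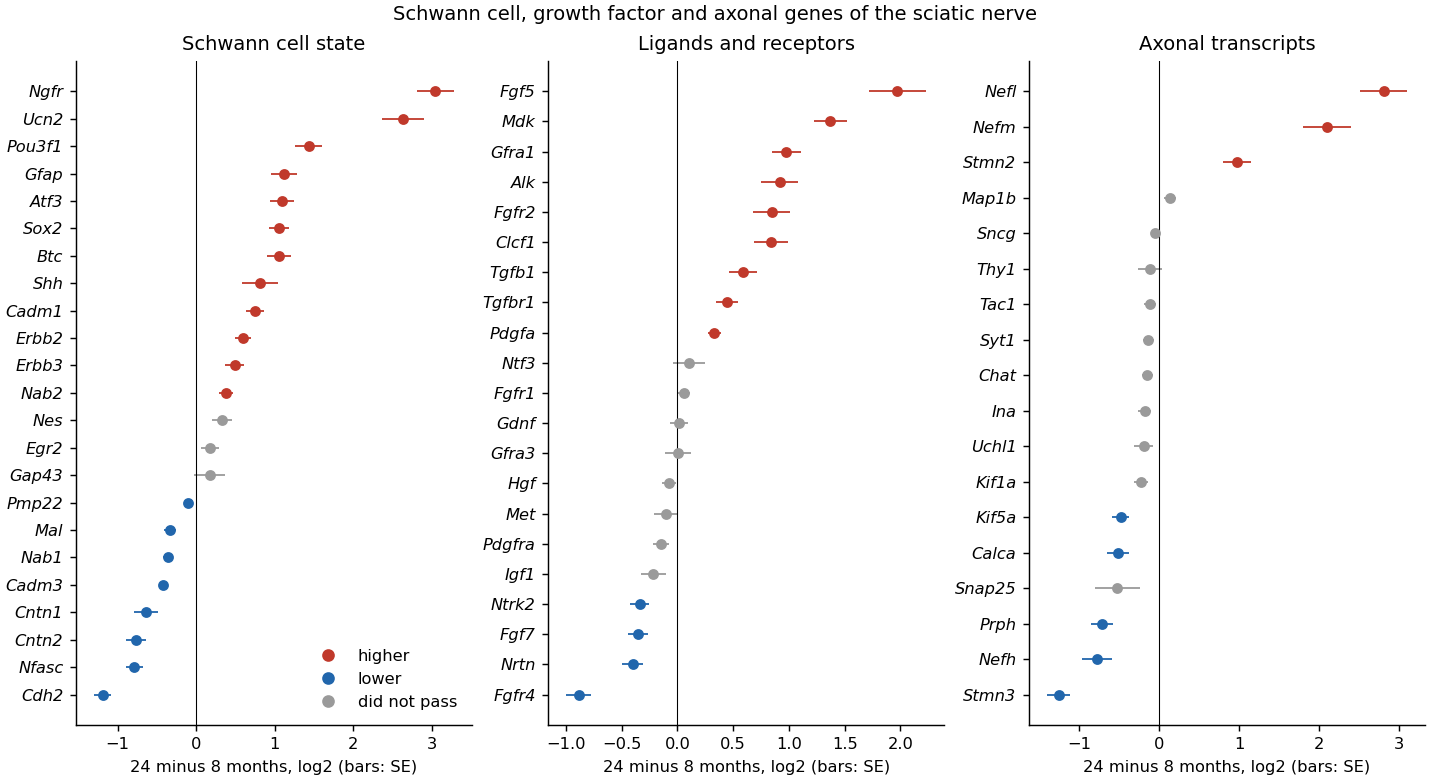
Age difference in the sciatic nerve (x axis, log2, 24 minus 8 months, bars SE, 8 animals per age) of Schwann cell genes, growth factor ligands and receptors, and axonal transcripts (y axes); red genes rose, blue genes fell and grey genes did not pass. Ngfr and Nefl lie at 3.04 and 2.81 at the top of their panels, and Cdh2, Fgfr4 and Stmn3 at -1.19, -0.88 and -1.26 at the bottom.

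Interferon-stimulated genes rose across the classes of that response. Many of these genes carry an interferon-stimulated response element that is bound by STAT and IRF factors once interferon reaches a cell. Of 41 genes 31 rose, 30 of them stably, and 2 fell, with a median of 0.68, and 0.54 without old replicate 1. The chemokine Cxcl10 lay between 6.49 and 7.90 (median 7.03) in adult nerves and between 8.50 and 11.09 (median 9.12) in old ones, a rise of 2.19 ± 0.34, and old replicate 1 was highest. Among antiviral effectors Mx1 rose by 1.68 ± 0.32, Ifit3 by 1.57 ± 0.26, Rsad2 by 1.55 ± 0.29 and Oas1a by 1.20 ± 0.20. The ubiquitin-like Isg15 rose by 1.11 ± 0.22, and the protease that removes it, Usp18, by 1.56 ± 0.20. Of the transcription factors, Irf7 rose by 1.13 ± 0.20, Irf9 by 0.40 ± 0.07 and Stat2 by 0.34 ± 0.07, while Irf1 differed by 0.18 ± 0.11.

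Adult nerves varied in these genes as well. The mean over the 41 genes lay between 8.71 and 9.34 (median 8.85) in adult nerves, with replicate 3 highest, and between 9.31 and 10.20 (median 9.54) in old ones, with replicate 1 highest. The old and adult ranges overlapped at that end. Of the 31 genes that rose 9 did so without overlap, a share near that of all genes, where 442 were higher without overlap, beside 1665 that rose. Among the 9 were Usp18, Rtp4 (1.37 ± 0.17), the guanylate-binding protein Gbp2 (0.90 ± 0.09), the ubiquitin ligase Trim25 (0.81 ± 0.10) and the membrane protein Ifitm1 (0.78 ± 0.11). Ifit1 went the other way, with values between 6.14 and 7.98 (median 7.85) in adult nerves and between 5.58 and 6.16 (median 5.95) in old ones, a fall of 1.72 ± 0.22. Oas1b fell as well, by 0.60 ± 0.18, a call that was lost without the 3 animals of contradicting source names (adjusted p = 0.0684). Ifitm3 (0.06 ± 0.04) and Ifi27 (0.07 ± 0.06) did not pass.

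Promoter sequence was found for 31 of the 41 interferon genes, 24 of them among the 33 that passed. The core of the response element, GAAA, any 2 bases and GAAA on either strand, occurred in 18 of 31 (58.1%) and in 14 of the 24 that passed (58.3%), against 3.61% of the promoters of all 27457 genes and 2.85% of those on the array. The windows of 4 genes that rose are shown with the core in capitals, which reads TTTC, 2 bases, TTTC where it lies on the other strand, and Oas1a holds a pair of overlapping cores.
Ifit3 (chr1:241527262-241527311, plus strand): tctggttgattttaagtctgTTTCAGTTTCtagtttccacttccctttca
Oas1a (chr12:41330405-41330460, plus strand): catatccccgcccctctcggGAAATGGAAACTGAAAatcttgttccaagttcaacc
Irf7 (chr1:205800063-205800112, minus strand): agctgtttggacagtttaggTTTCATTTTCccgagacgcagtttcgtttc
Rsad2 (chr6:48788238-48788287, minus strand): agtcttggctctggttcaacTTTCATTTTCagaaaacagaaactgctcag
These 4 genes rose by 1.57 ± 0.26, 1.20 ± 0.20, 1.13 ± 0.20 and 1.55 ± 0.29. Oas1b, which fell, holds 2 cores as well, and Ubd and Mx1, which rose, hold none in these bases.

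Macrophage genes rose in part. Of 26 macrophage genes 12 rose, all stably, and 0 fell. The list median was 0.25, and 0.12 without old replicate 1, when 12 rose and 3 fell. Besides Trem2, the sialic acid receptor Siglec5 lay between 6.78 and 7.31 (median 7.03) in adult nerves and between 8.29 and 10.34 (median 9.28) in old ones, a rise of 2.18 ± 0.28, and Gpnmb, a glycoprotein of lipid-laden macrophages, lay between 11.12 and 11.56 (median 11.25) in adult nerves and between 12.32 and 13.25 (median 12.98) in old ones, a rise of 1.62 ± 0.16. The lysosomal marker Cd68 rose by 1.12 ± 0.21, the pore-forming Mpeg1 by 1.00 ± 0.16, lysozyme Lyz2 by 0.57 ± 0.09 and the Fc receptor Fcgr3a by 1.36 ± 0.35, a value of 0.90 without old replicate 1. The scavenger receptor Cd163 (-0.69 ± 0.35), the mannose receptor Mrc1 (-0.42 ± 0.29), the growth factor receptor Csf1r (-0.17 ± 0.18) and Adgre1 (-0.20 ± 0.25) did not pass, although Cd163 fell by 0.96 without old replicate 1 (adjusted p = 0.0396) and differed by -0.26 without old replicate 4, its lowest value.

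Complement and antigen presentation genes rose in part. Of 22 complement genes 6 rose, 5 of them stably, and 3 fell. C3, the central component, rose by 1.87 ± 0.35, the C3b protease Cfi by 1.55 ± 0.18 and C1r by 0.27 ± 0.06, the terminal component C6 fell by 1.45 ± 0.31, and C1qa (0.14 ± 0.17), C1qb (0.08 ± 0.21) and C1qc (0.00 ± 0.21), which macrophages make, did not pass. Of 20 antigen presentation genes 6 rose, 4 of them stably, including the peptide transporters Tap1 (0.67 ± 0.12) and Tap2 (0.46 ± 0.12), and Cd74 differed by -0.16 ± 0.16. Old replicate 1 had the highest mean of this list (11.88, others between 10.26 and 10.88), whose median was 0.22 and 0.08 without it. Among the chemokines and cytokines the shares called were at or below those of all genes (12.4% higher, 9.78% lower). Of 27 chemokines 3 rose and 1 fell, with a stable rise of Cxcl16 (0.75 ± 0.12), which binds the receptor of activated T cells, and a stable fall of the lymphocyte attractant Ccl19 (0.66 ± 0.18). Of 34 cytokines and receptors 3 rose and 1 fell, and neither Il6 (0.16 ± 0.13), Il1b (-0.11 ± 0.41) nor Tnf (0.04 ± 0.08) passed.

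Mast cell genes fell, and the counts of lymphocyte genes that rose lay near the 12.4% of all genes. Of 21 T and NK cell genes 3 rose, 2 of them stably, and the T cell receptor chain Cd3g lay between 6.64 and 7.06 (median 6.90) in adult nerves and between 7.17 and 8.61 (median 7.51) in old ones, a rise of 0.82 ± 0.17. The median of the list was 0.31, and 0.10 without old replicate 1. Of 12 B and plasma cell genes 1 rose, the adaptor Blnk (1.01 ± 0.15), which macrophages also use. Of 18 mast cell genes 10 fell (9.78% of all genes fell), all stably, and 0 rose, with a median of -0.53. The chymase Cma1 lay between 11.82 and 12.63 (median 12.30) in adult nerves and between 9.67 and 11.06 (median 10.79) in old ones, a fall of 1.68 ± 0.16, and the stem cell factor receptor Kit lay between 7.52 and 8.43 (median 7.95) in adult nerves and between 6.42 and 7.47 (median 7.06) in old ones, a fall of 0.92 ± 0.16. The histidine decarboxylase Hdc, which makes histamine, fell by 0.63 ± 0.15, the prostaglandin D synthase Hpgds by 0.94 ± 0.15, and the chains of the IgE receptor Fcer1a and Ms4a2 by 1.21 ± 0.25 and 0.91 ± 0.19. Of 11 neutrophil genes 2 rose, 1 of them stably, and 1 fell, with a median of 0.53. The gene that fell was the iron carrier Lcn2, by 2.15 ± 0.45 (range 9.62 to 10.65 in adults and 6.39 to 9.94 in old animals), and S100a8 (0.55 ± 0.54) and S100a9 (0.60 ± 0.57) did not pass.

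Cell cycle genes rose from S phase to cytokinesis. Of 57 genes 51 rose, all stably, and 0 fell, with a median of 0.71. In 34 of the 57 every old value exceeded every adult value, against 3.29% of all genes. The mean of the list lay between 7.17 and 7.39 (median 7.25) in adult nerves and between 7.69 and 8.71 (median 8.04) in old ones, with old replicate 1 highest, and the median difference was 0.65 without that animal. Many of these probe sets are dim. By the mean over all 32 arrays, 13 of the 57 genes lie above the median of all values, and 10 of these rose, with a median difference of 0.47, while 41 of the other 44 rose, with a median of 0.78.

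At entry to the cycle, cyclin D1 (Ccnd1) lay between 11.55 and 12.13 (median 11.82) in adult nerves and between 12.34 and 12.54 (median 12.46) in old ones, a rise of 0.60 ± 0.07, and cyclin E1 (Ccne1) rose by 0.92 ± 0.16. For DNA synthesis, the ribonucleotide reductase subunit Rrm2 lay between 6.79 and 8.17 (median 7.35) in adult nerves and between 8.93 and 10.47 (median 9.63) in old ones, a rise of 2.35 ± 0.22, and the licensing factors Cdt1 and Mcm5 rose by 0.78 ± 0.11 and 0.81 ± 0.16, while the replicative helicase subunit Mcm4 (0.06 ± 0.07) did not pass. The mitotic kinase Cdk1 lay between 6.20 and 7.04 (median 6.49) in adult nerves and between 7.58 and 9.33 (median 8.39) in old ones, a rise of 1.91 ± 0.21, and its partners Ccnb2 and Ccna2 rose by 1.71 ± 0.19 and 1.42 ± 0.19. The proliferation marker Mki67 rose by 1.61 ± 0.24, the topoisomerase Top2a by 1.65 ± 0.18, the kinetochore protein Spc25 by 1.53 ± 0.16, the spindle motor Kif11 by 1.47 ± 0.20 and the cytokinesis factor Ect2 by 1.20 ± 0.16.

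Genes of G2 and mitosis are held by the DREAM and MuvB complexes at CHR elements, often near CCAAT boxes. Promoter sequence was found for 44 of the 57 cell cycle genes, 41 of them among the 51 that rose. The CHR letters TTTGAA occurred on either strand in 16 of 44 (36.4%) and in 15 of the 41 that rose (36.6%), against 17.2% of the promoters of all 27457 genes and 11.7% of those on the array. CCAAT occurred in 30 of 44 (68.2%) and in 29 of the 41 (70.7%), against 36.1% and 36.2%. The windows of 4 genes with large rises are shown with the CHR letters in capitals, which read TTCAAA on the other strand.
Cdk1 (chr20:19265211-19265292, plus strand): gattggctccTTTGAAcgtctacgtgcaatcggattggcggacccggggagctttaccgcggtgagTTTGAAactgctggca
Mki67 (chr1:199952667-199952730, minus strand): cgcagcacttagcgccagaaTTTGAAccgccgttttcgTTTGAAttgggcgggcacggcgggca
Top2a (chr10:84473094-84473131, minus strand): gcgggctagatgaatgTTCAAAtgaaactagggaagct
Spc25 (chr3:74396750-74396795, minus strand): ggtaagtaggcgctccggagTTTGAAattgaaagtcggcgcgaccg
Cdk1 and Mki67 hold 2 matches each.

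Inhibitors of the cycle moved in both directions. Of 22 genes of senescence and p53 5 rose, all stably, and 4 fell, 3 of them stably, with a median of 0.10. The INK4 inhibitors Cdkn2b and Cdkn2a rose by 1.41 ± 0.19 and 0.43 ± 0.11, and the p53 target Cdkn1a, with values between 8.53 and 9.20 (median 8.77) in adult nerves and between 9.13 and 11.22 (median 9.65) in old ones, by 1.09 ± 0.20. The other inhibitors of its family, Cdkn1c and Cdkn1b, fell by 0.45 ± 0.09 and 0.19 ± 0.05. The macrophage elastase Mmp12 rose by 0.76 ± 0.16. The lysosomal beta-galactosidase Glb1 (0.08 ± 0.07), whose activity marks senescent cells, did not pass.

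**Figure D4:**
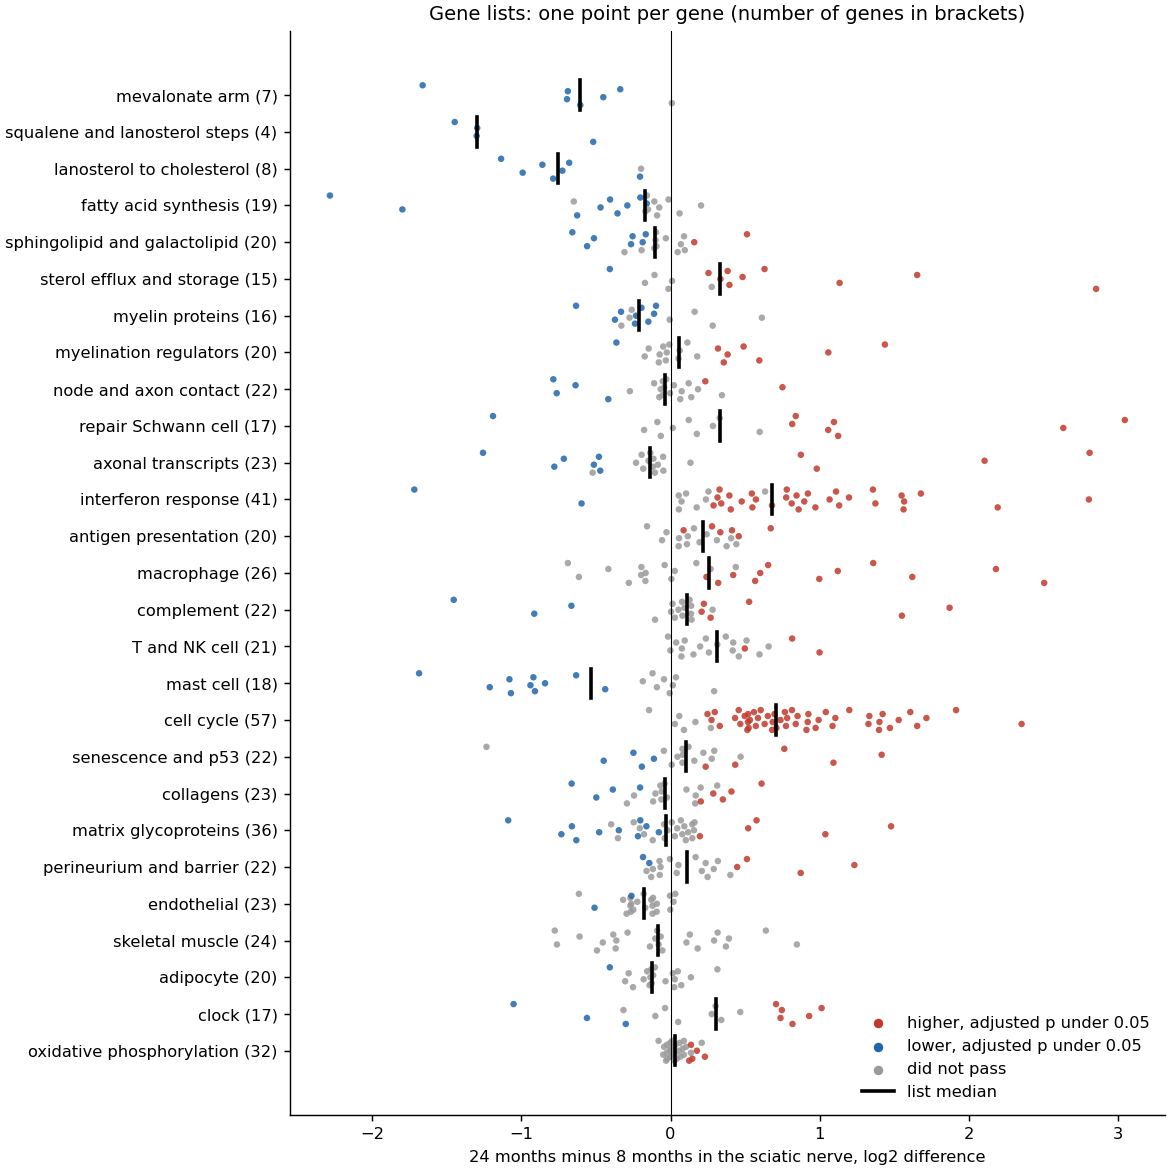
Age difference in the sciatic nerve (x axis, log2, 24 minus 8 months) of every measured gene of 27 gene lists (y axis, number of genes in brackets); red points rose, blue points fell, grey points did not pass, and the black bar is the list median. The medians of the 3 stretches of cholesterol synthesis lie at -0.60, -1.30 and -0.76, those of the interferon and cell cycle lists at 0.68 and 0.71, and the skeletal muscle genes are all grey.

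Matrix genes changed in both directions. Of 23 collagens 5 rose and 4 fell, and the major fibrillar genes Col1a1 (-0.10 ± 0.08) and Col3a1 (-0.06 ± 0.05) did not pass. The basement membrane collagen Col18a1 rose by 0.61 ± 0.08, and Col23a1 and the fibril-associated Col14a1 fell by 0.66 ± 0.12 and 0.50 ± 0.09. Of 36 matrix glycoproteins and proteoglycans 5 rose, 4 of them stably, and 10 fell, 7 stably. The thrombospondin Thbs2, a matrix protein that bridges cells and collagen, lay between 9.51 and 10.32 (median 9.90) in adult nerves and between 10.99 and 11.90 (median 11.43) in old ones, a rise of 1.48 ± 0.22, and Thbs4, which is found in tendon and nerve, rose by 1.04 ± 0.21. Neither overlapped between the ages. The basement membrane proteoglycan Hspg2 rose by 0.52 ± 0.09, whereas Pi16, a marker of adventitial fibroblasts, fell by 1.09 ± 0.19, vitronectin (Vtn) by 0.73 ± 0.16 and asporin (Aspn) by 0.63 ± 0.14. Of 33 genes of matrix turnover 7 rose, 6 of them stably, and 4 fell, 1 stably, with a median of -0.05. Among them the inhibitor Timp1 (0.75 ± 0.12), the protease Mmp19 (0.91 ± 0.16) and the fibroblast protease Fap (0.65 ± 0.14) rose stably, and Mmp2 (-0.05 ± 0.09) and Timp2 (-0.06 ± 0.04) did not pass.

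Of 22 perineurial and barrier genes 4 rose, 3 of them stably, and 2 fell, none stably. The retinoid-binding protein Crabp2 lay between 9.30 and 10.99 (median 10.45) in adult nerves and between 11.28 and 12.03 (median 11.35) in old ones, a rise of 1.23 ± 0.26, while the tight junction genes Cldn1 (0.25 ± 0.25), Cldn5 (-0.00 ± 0.06) and Tjp1 (-0.07 ± 0.04) did not pass. Of 23 endothelial genes 2 fell, 1 of them stably, the VEGF receptor Kdr (0.51 ± 0.08), whose dim second probe set differed by -0.09 and did not pass. In this list 21 of 23 estimates were negative, with a median of -0.18. The mean of this list was lowest in old replicate 4 (9.65, other old nerves 10.00 to 10.30), the array with the most muscle transcript. Among 17 pericyte and smooth muscle genes the pericyte potassium channel Kcnj8 fell by 0.63 ± 0.12 without overlap, and Acta2 (-0.06 ± 0.19) and Myh11 (0.07 ± 0.19), which form the contractile filaments of smooth muscle, did not pass. None of 24 skeletal muscle genes passed, 1 of 20 adipocyte genes fell (Lpl, as above), and of 12 blood cell genes Bpgm alone rose (0.56 ± 0.09).

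Some genes best known from epithelia were present and changed. Of 20 epithelial and keratin genes 5 rose, 4 of them stably, and 4 fell, all stably. The largest of these falls was that of Cnmd (1.76 ± 0.15), the cartilage and tendon glycoprotein named above, which this list also holds. Epcam lay between 5.41 and 5.92 (median 5.66) in adult nerves and between 7.04 and 8.94 (median 7.93) in old ones, and the simple-epithelium keratin Krt7 lay between 5.12 and 7.24 (median 6.24) in adult nerves and between 7.49 and 8.47 (median 7.92) in old ones, a rise of 1.82 ± 0.23. The cornified envelope protein Scel rose by 2.07 ± 0.33 and the plakophilin Pkp1 by 0.87 ± 0.15. E-cadherin (Cdh1), which Schwann cells use in their own junctions, fell by 0.57 ± 0.09, the basal keratin Krt5 by 0.83 ± 0.14 and Agr2 by 0.78 ± 0.21. Krt8 (-0.03 ± 0.11), Krt18 (-0.07 ± 0.16), Krt14 (0.00 ± 0.06) and Cldn7 (0.09 ± 0.11), which accompany Epcam and Krt7 in epithelia, did not pass.

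Genes of the circadian clock changed in both directions. Of 17 clock genes 6 rose, 4 of them stably, and 3 fell, 2 stably: Npas2, of the activating arm, lay between 9.60 and 10.51 (median 10.30) in adult nerves and between 7.62 and 9.87 (median 9.36) in old ones, a fall of 1.05 ± 0.26, and the repressors Bhlhe41 and Bhlhe40 and the output factor Hlf rose by 0.74 ± 0.16, 0.71 ± 0.19 and 0.75 ± 0.17. Without the 3 animals of contradicting source names 3 clock genes rose and 1 fell. The hour of sampling is not given in the sources used here. Of 20 immediate early genes 4 rose, all stably, including Fosl1 (1.23 ± 0.18) and Atf3, 2 fell, none stably, and Egr1 (-0.07 ± 0.22) and Nr4a1 (-0.02 ± 0.15) did not pass. Of 31 heat shock and unfolded protein genes 9 rose, 4 of them stably, and 1 fell, with estimates of the whole list between -0.23 and 0.29. Among 31 antioxidant genes metallothionein Mt3 fell by 0.71 ± 0.10 and the plasma peroxidase Gpx3 by 0.36 ± 0.08, and mitochondrial Sod2 rose by 0.54 ± 0.12.

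In energy metabolism the calls were set against the 22.2% of all genes that passed. Of 32 genes of oxidative phosphorylation 5 rose, 3 of them stably, and 0 fell, and the estimates of the whole list ran from -0.08 to 0.23. Of 20 genes of glycolysis and lactate transport 2 fell and 0 rose. The stable fall was Aldoc, the aldolase of brain and nerve, which lay between 10.72 and 11.40 (median 11.10) in adult nerves and between 9.25 and 10.24 (median 9.71) in old ones, a fall of 1.35 ± 0.13. The lactate transporters Slc16a1 (-0.14 ± 0.12), Slc16a3 (0.12 ± 0.37) and Slc16a7 (0.16 ± 0.13) did not pass. In insulin and IGF signalling, with 27 genes, Pik3r1 was the stable call, and the other PI3 kinase and receptor genes Pik3ca (-0.03 ± 0.04), Insr (0.10 ± 0.10) and Igf1r (0.00 ± 0.07) did not pass. Of 25 genes of ion and water transport 4 rose and 3 fell, among them the calcium-activated potassium channel Kcnn4, with values between 6.66 and 7.17 (median 6.90) in adult nerves and between 7.22 and 8.80 (median 8.43) in old ones, a rise of 1.35 ± 0.18, the potassium channel Kcnk1 with a fall of 0.68 ± 0.11 and the sodium pump subunit Atp1b1 with a rise of 0.46 ± 0.12.

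Whether an age difference was particular to the sciatic nerve was tested as an interaction, in which the radial age difference is subtracted from the sciatic one. Of the 364 probe sets past both thresholds in the sciatic nerve, 320 had the same sign and passed in the radial nerve, and 19 passed this interaction. Over all probe sets 108 passed it (0.348%), 39 with a higher (0.126%) and 69 with a lower value (0.222%) in the sciatic nerve. Of the genes, 49 passed (0.365%), 21 higher (0.156%) and 28 lower (0.208%). The count of 108 probe sets was 2 when the animal was left out of the model, 75 with the muscle mean of each array as a covariate, 9 without the arrays rich in muscle transcripts, which leaves 20 of 32 arrays, and 9 to 171 with 1 animal left out.

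Of the 20 genes with the 10 highest and the 10 lowest interaction estimates, 2 kept the call in all 16 fits with 1 animal left out, Rc3h2 and Ap4b1, and the other 18 kept it in 3 to 15 of these fits. Rc3h2, which encodes an RNA-binding ubiquitin ligase, differed by 0.07 ± 0.06 in the sciatic and by -0.51 ± 0.06 in the radial nerve, an interaction of 0.57 ± 0.07 (adjusted p = 0.000106). Ap4b1, an adaptor protein subunit of the trans-Golgi network, differed by 0.16 ± 0.05 and -0.38 ± 0.05, an interaction of 0.54 ± 0.07 (adjusted p = 0.000106), and this call was lost when the nerve was taken from the source names. In both genes the radial nerve moved and sciatic values at the ages overlapped. Idi1 fell more in the sciatic nerve than in the radial nerve (interaction -0.81 ± 0.15, adjusted p = 0.0188, radial -0.85 ± 0.11), Cma1 likewise (interaction -1.09 ± 0.20, adjusted p = 0.0196, radial -0.60 ± 0.16), and the ciliary gene Cfap299 rose more in the sciatic nerve (1.82 ± 0.15 against 0.76 ± 0.15, interaction 1.06 ± 0.20, adjusted p = 0.021). Each kept the call in 15 of 16 fits with 1 animal left out, the exception being Idi1 without adult replicate 8 (-0.81, adjusted p = 0.0533), Cma1 without adult replicate 8 (-1.02, adjusted p = 0.0604) and Cfap299 without old replicate 4 (1.00, adjusted p = 0.0521). All 3 calls were kept with the muscle covariate. They were lost without the animal in the model, where the estimates were the same, and without the muscle-rich arrays, where Idi1 had an interaction of -0.71, Cfap299 of 0.73 and Cma1 of -0.53. The call of Cma1 was lost also with the nerve taken from the source names (-0.77) and that of Cfap299 also without the 3 animals of contradicting source names (0.87).

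The interaction estimates of all 19 measured cholesterol enzymes were negative, against 48.3% of all genes, with a median of -0.26 against 0.01. The pathway had been singled out by the study from these very arrays, so this count is a description. Other lists were nearly as one-sided: 17 of 18 mast cell genes had a negative estimate (median -0.47), and 22 of 24 skeletal muscle genes (median 0.76) and 29 of 32 oxidative phosphorylation genes (median 0.09) a positive one. Estimates were positive also for 17 of 19 fatty acid oxidation genes (median 0.12) and 49 of 57 cell cycle genes (median 0.18). The mean of the skeletal muscle genes exceeded 9 on 9 of the 16 radial arrays, against 3 of the 16 sciatic arrays, and the probe sets past the interaction numbered 75 with the muscle mean as a covariate and 9 without such arrays. Of the 19 cholesterol enzymes measured here 3 passed (Idi1, Fdft1 at -0.67 ± 0.14 and Cyp51 at -0.63 ± 0.14), and the calls of Fdft1 and Cyp51 held in 5 and 3 of 16 fits with 1 animal left out. Hmgcs1, which the study lists past its own interaction test, is not among these 19 genes, so its interaction is not given here. Elovl6 (-0.84 ± 0.17), Ckmt1 (-0.81 ± 0.17) and the mast cell protease Cpa3 (-1.17 ± 0.23) passed too, with the call kept in 8, 7 and 10 of 16 such fits. Without the muscle-rich arrays all these calls were lost. The estimates there were larger for Fdft1 (-0.77) and Cyp51 (-0.77), alike for Elovl6 (-0.85), and smaller for Idi1 (-0.71), Ckmt1 (-0.66) and Cpa3 (-0.68). Ngfr, Nefl and Abca1 did not pass the interaction (adjusted p = 0.153, 0.308 and 0.814), nor did any gene of the interferon and cell cycle lists.

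**Figure D5:**
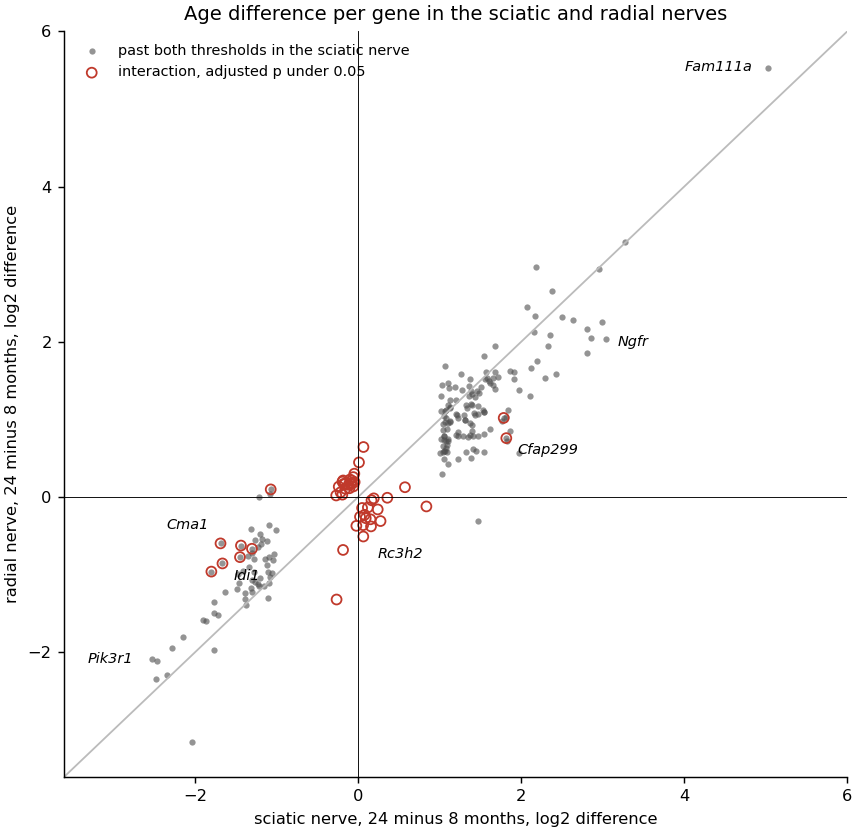
Age difference per gene in the sciatic nerve (x axis) and the radial nerve (y axis), both log2, 24 minus 8 months, 8 arrays per group; dots are the 197 genes past both thresholds in the sciatic nerve, open red circles the 49 genes past the interaction, and the line marks equal differences. Most dots lie near the line, with Fam111a at 5.03 and 5.53, and Idi1 at -1.66 and -0.85 lies above it.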

How the data were processed

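RNA from whole radial and sciatic nerve of 16 rats was labelled with biotin and hybridised to 32 Affymetrix rat arrays. The deposited values are log2 intensities, summarised per probe set by the authors with RMA (background correction, quantile normalisation and median polish) in Expression Console, per the labels, so a low value cannot be told from background. All 31042 non-control probe sets were fitted in limma 3.58.1 (R 4.3.3) with the means of 4 groups and the animal as a random block (statmod 1.5.0, consensus correlation 0.148). A pairing of the 2 nerves was taken from the animal identity in the labels, and their deviations from the group means correlated between -0.10 and 0.49. Contrasts were 24 minus 8 months in the sciatic nerve, and that difference minus the radial one. Calls needed an adjusted p (Benjamini-Hochberg) under 0.05, and counts past both thresholds also a fold of 2.

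Genes were named through a table of the array's annotation, in which 19063 probe sets had 1 symbol, 572 several and 11407 none, and each of 13438 genes was read from the probe set of highest mean over all arrays. Of the 275 genes named here 77 have another probe set. For 23 of these, Cdh1, Tgfbr1, Pik3ca and Ggps1 among them, another probe set differed in call or direction, and 0 had one that passed in the opposite direction. The members and gene lists were chosen with earlier results of these data known, so lists are described by counts and medians beside those of all genes, with no set test. The genes given by rule were the 15 highest and the 15 lowest differences among genes past both thresholds without overlap between the ages. The 10 highest and the 10 lowest interaction estimates were also taken by rule. Of these 20 genes 10 are named, and most of those not named are among the highest. Other genes named are members of the lists. On simulated data for the sciatic contrast with 31042 probe sets, 82% of changes of 0.5, 100% of changes of 1 and 96% of changes of -1.5 (log2) were called. Alternatives were filters on SD and on dim probe sets, other block, variance, weight and scaling settings, muscle and fat covariates, source-name labels, other fold thresholds, and leaving out each animal (both its nerves). Each sciatic array is a separate animal. The number of arrays limits the precision. Tables were made in Python 3.11.15 (pandas 2.3.3, numpy 2.4.6, scipy 1.17.1) and plots with matplotlib 3.10.9. Sequences came from RefSeq (build GRCr8), and a gene counted as holding a motif where any of its listed starts did.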

Additional observations from a re-analysis of the deposited data

Results flagged for a closer look

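Single animals stood apart from the other 7 of their age. For each of the 275 genes named here and each age, the gap between the extreme animal and its nearest neighbour was set against the range of the 8 sciatic values, and the gap was unusually wide in 67 of 550 groups (12.2%), where chance flags about 1 in 20. Values are log2 intensities. Technical and biological reasons for single animals were not tested.

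Old replicate 1 stood above the other old nerves for C1qa (13.29), C1qb (12.53), C1qc (13.36), Ccl19 (8.62), Cdt1 (8.65), Cxcl16 (10.94), Fcgr3a (11.88), Gbp2 (12.35), Ifitm1 (13.36), Il1b (9.26), Irf1 (11.79), Mcm5 (9.33), Mpeg1 (7.86), Sod2 (11.72), Tap1 (10.69), Tgfb1 (10.12), Ubd (13.07) and Ucp2 (11.01), and stood below them for Cdkn1c (10.01), Egln3 (8.80) and Scel (8.86). Old replicate 3 stood above the other old nerves for S100a8 (11.24) and S100a9 (12.49). Old replicate 4 stood above the other old nerves for Adgrg6 (9.65), Gdnf (5.17) and Gfap (12.14), and stood below them for Cd163 (6.77), Cma1 (9.67), Col14a1 (11.65), Igf1 (12.39) and Pi16 (9.65). Old replicate 6 stood above the other old nerves for Krt14 (5.46). Old replicate 8 stood below the other old nerves for Npas2 (7.62).

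Adult replicate 2 stood above the other adult nerves for Cdkn2b (6.76), Fap (9.72) and Hpgds (8.24), and stood below them for Cxcl16 (9.22), Pik3ca (11.01) and Vtn (10.07). Adult replicate 3 stood above the other adult nerves for Irf7 (10.71), Isg15 (9.38) and Rtp4 (10.11), and stood below them for Alk (7.70) and Erbb3 (8.60). Adult replicate 4 stood above the other adult nerves for Egfr (10.06) and Rc3h2 (9.61), and stood below them for Trim25 (9.56). Adult replicate 5 stood above the other adult nerves for Abcg1 (11.88) and Scarb1 (12.27), and stood below them for Acsl3 (10.62), C1r (12.19), Cldn1 (8.71), Degs1 (12.71), Elovl6 (10.09), Fgfr1 (11.52), Gfra1 (10.18), Slc16a1 (11.48) and Soat1 (8.87). Adult replicate 6 stood above the other adult nerves for Lif (4.44), and stood below them for Fgf7 (10.09) and Met (6.36). Adult replicate 7 stood above the other adult nerves for Egr2 (12.13), Il6 (5.01), Kif5a (8.65) and S100a8 (8.23), and stood below them for Ifit1 (6.14). Adult replicate 8 stood above the other adult nerves for Senp5l1 (9.22).

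The interaction, the sciatic age difference less the radial one, passed its test for 10 of the genes named. Over all genes, 21 passed it with a higher and 28 with a lower sciatic value. Among the genes named it was negative for Cpa3 (-1.17), Cma1 (-1.09), Elovl6 (-0.84), Ckmt1 (-0.81), Idi1 (-0.81), Fdft1 (-0.67) and Cyp51 (-0.63), and positive for Ap4b1 (0.54), Rc3h2 (0.57) and Cfap299 (1.06). With the animal left out of the model, Rc3h2 and Ap4b1 alone among these genes passed. Each gene was read from its brightest probe set, and Bdnf did not pass the interaction on that one. The study lists Bdnf among the genes whose age change differed between the nerves, and the interaction of its dimmer probe set is not given here.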

How the results depend on the processing

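Counts of probe sets past both thresholds (224 higher and 140 lower) moved with the threshold and the unit counted, to 704 and 550 at a fold of 1.5, to 118 and 71 with limma's treat against that fold, and to 135 and 62 with 1 probe set per gene, where 1770 and 1395 passed at adjusted p alone (3013 and 3096 before). Filters, weights, scaling, covariates and the label alternatives left these 4 counts within 1.5 times their value. With 1 animal left out they ranged over 217 to 257, 136 to 156, 2649 to 3011 and 2630 to 3139. The interaction count of 108 was less steady, with 57 under the SD filter, 230 under the filter on dim probe sets, 75 with the muscle covariate, 9 without muscle-rich arrays (20 of 32 arrays left), 71 with 1 probe set per gene, and 9 to 171 with 1 animal left out.

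Without the block for the pairing of nerves, 221 probe sets rose and 138 fell past both thresholds, 2969 and 3052 passed at adjusted p alone, and 2 passed the interaction. The title numbers name different animals at the 2 ages, and sciatic arrays of the same number correlated between -0.20 and 0.17 in their deviations. A block by these numbers, over the sciatic arrays alone, gave 218 and 130 past both thresholds and 2192 and 2094 at adjusted p.

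Of the 197 genes named here that passed in the sciatic nerve, each alternative other than the left-out animals kept between 165 and 197 among those it tested, and lost between 0 and 3. The lost calls were those of Alb, Lpl, Oas1b, Ap4b1 and, with the block by title numbers, Egln3, and leaving out 1 animal lost at most 2 (Lpl and Ap4b1). No passed gene changed direction under any of these settings. These counts cover the genes named here only. Over all 1016 genes of the lists, 199 of 226 higher calls and 104 of 144 lower calls held in each of the 16 fits that left out 1 animal. Among genes that did not pass, Lbr, Bdnf and Cd163 passed under some of them, Lbr with the sciatic arrays alone (adjusted p = 0.0396). RMA values carry no depth, and a level near the lower end of the scale cannot be told from background. The filter on dim probe sets kept 165 of the 197 passed genes, all with their call.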

Other observations

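Some further lists were described in the sciatic nerve, where 12.4% of all genes rose and 9.78% fell. Of 19 hypoxia genes 4 fell and 1 rose, and the stable call was the fall of Egln3, an oxygen-sensing prolyl hydroxylase (0.39 ± 0.11). Of 20 glucocorticoid target genes 3 rose and 3 fell, 1 and 2 of them stably. Of 9 hindlimb and posterior position genes 4 fell, 2 of them stably, of which Hoxa9, a patterning gene of the trunk and limbs, fell by 0.52 ± 0.13, and of 8 forelimb genes 1 fell, not stably. The source names put 3 adult sciatic arrays into the radial group, and the mean of the hindlimb list did not overlap between the nerves (7.46 to 8.21 on sciatic and 6.81 to 7.28 on radial arrays), so age differences in it rest on the titles. The mean of the forelimb list overlapped (7.59 to 8.10 on sciatic and 8.05 to 8.59 on radial arrays).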
